A study of Homo sapiens with 2 samples.

Results

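The 6 genes described here encode the main architectural factors of chromatin looping, CTCF, RAD21, SMC1A, SMC3, NIPBL and YY1. They were chosen by name, not by a threshold on a measured value, but with earlier results of these data known. Each was represented by the H3K4me3 regions within 3 kb of its hg19 start site, which gave 10 of the 19782 wild-type regions and 10 of the 19647 knockout regions on chromosomes 1 to 22, X and Y. H3K4me3, trimethylation of lysine 4 of histone H3, was profiled by chromatin immunoprecipitation and sequencing in HEC-1-B, an established human cell line of uterine adenocarcinoma. One library came from wild-type cells and 1 from cells labelled as a knockout of ZNF143, a zinc-finger transcription factor. Whether the knockout was 1 clone, and which part of the gene was deleted, is not given in the sources used here. The series as a whole asks how loss of ZNF143 affects looping and the arrangement of CTCF and cohesin, and the regions below concern the promoters of the genes for those proteins. With 1 library per genotype, no difference has a replicate check and no test was made.

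CTCF is a zinc-finger protein that binds DNA in a fixed orientation and halts cohesin, the ring-shaped complex that extrudes chromatin loops. RAD21, SMC1A and SMC3 are core subunits of that ring, and NIPBL is the factor that loads it onto chromatin and sustains extrusion. YY1 is a zinc-finger factor that binds promoters and enhancers and can bridge them as a dimer. H3K4me3 marks the nucleosomes that flank active start sites, and the start itself often lies in a stretch depleted of nucleosomes, so that the mark can appear as 1 region on either side of a gap.

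The RefSeq promoter table (GRCh38.p14, 250 bases before to 50 after each start) held 5 of the 6 genes, with 2 entries for SMC1A. Its build differs from that of the regions, so promoters were not placed within them. The sequences of 4 promoters are shown for what they have in common and for how far apart they lie in composition: those of CTCF and SMC3 carry the same match to a YY1 motif, that of NIPBL belongs to the gene whose regions were joined in the knockout list, and that of YY1 is the richest in G and C. Capitals mark matches to AANATGGC, the YY1 motif searched, on either strand.
CTCF, chr16:67562276-67562575, + strand: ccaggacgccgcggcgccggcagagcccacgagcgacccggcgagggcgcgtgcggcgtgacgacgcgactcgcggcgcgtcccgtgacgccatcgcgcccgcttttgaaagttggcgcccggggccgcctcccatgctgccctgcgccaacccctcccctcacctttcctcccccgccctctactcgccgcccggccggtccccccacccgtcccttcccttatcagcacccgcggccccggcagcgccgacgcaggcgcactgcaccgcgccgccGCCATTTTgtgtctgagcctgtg
SMC3, chr10:110567445-110567744, + strand: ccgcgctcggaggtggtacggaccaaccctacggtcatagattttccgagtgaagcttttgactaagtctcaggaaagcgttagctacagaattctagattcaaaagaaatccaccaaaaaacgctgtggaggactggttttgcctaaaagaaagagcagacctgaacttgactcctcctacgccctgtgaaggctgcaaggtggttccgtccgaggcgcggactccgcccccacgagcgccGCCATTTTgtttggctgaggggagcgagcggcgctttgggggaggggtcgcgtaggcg
NIPBL, chr5:36876519-36876818, + strand: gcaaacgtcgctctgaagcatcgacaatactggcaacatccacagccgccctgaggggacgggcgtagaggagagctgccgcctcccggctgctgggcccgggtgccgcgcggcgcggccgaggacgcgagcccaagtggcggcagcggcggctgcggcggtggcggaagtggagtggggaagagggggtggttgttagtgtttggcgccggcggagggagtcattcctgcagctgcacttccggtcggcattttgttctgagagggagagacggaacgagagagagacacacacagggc
YY1, chr14:100238894-100239193, + strand: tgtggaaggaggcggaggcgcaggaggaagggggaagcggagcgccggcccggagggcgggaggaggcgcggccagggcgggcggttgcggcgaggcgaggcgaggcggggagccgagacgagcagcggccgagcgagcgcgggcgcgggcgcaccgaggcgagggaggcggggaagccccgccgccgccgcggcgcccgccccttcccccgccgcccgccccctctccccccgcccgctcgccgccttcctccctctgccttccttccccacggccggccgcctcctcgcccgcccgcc

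All 6 promoter entries held more CpG than the median promoter. The ratio of observed to expected CpG was 1.14 at CTCF, 0.987 at SMC3, 0.956 at YY1 and 0.938 at NIPBL, and 0.769 and 1.06 at the 2 entries of SMC1A, against a median of 0.579 over the 35116 promoters of the table. GC content was less uniform. It ran from 56.0% at SMC3 to 82.7% at YY1, and 75.3% at CTCF, 67.0% at NIPBL and 61.0% and 65.7% at SMC1A lay between, with a median of 58.7% over the table. On this scale the SMC3 promoter was below the median promoter in GC content and the YY1 promoter stood at the 99.2 percentile.

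The YY1 motif was matched in the promoters of CTCF and SMC3, in both as GCCATTTT on the opposite strand. Its first base lay at position 28 in CTCF and at −8 in SMC3, counted from 1 at the first transcribed base. Of all promoters in the table, 6.58% held a match. A short form of the ZNF143 motif, ACTACANNT, had 0 matches in the 6 entries and was present in 3.58% of all promoters. A short core of the CTCF motif, AGGNGGC, had 6 matches in the YY1 promoter and 1 each in those of CTCF, NIPBL and the upstream entry of SMC1A, and was present in 35.9% of all promoters. These are matches of letters within 300 bases, on both strands, and say nothing of binding.

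Every one of the 6 genes had an H3K4me3 region within 3 kb of its start in both genotypes. All 10 wild-type regions overlapped a knockout region by at least 1 bp, as did 94.5% of the whole wild-type list. Of the 10 knockout regions, 9 overlapped a wild-type region, against 90.3% of the whole knockout list, and the remaining one lay upstream of SMC3. The counts thus stood close to those of the lists, in which most regions are shared.

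At most of the 6 genes the start site lay outside the regions. In the wild-type list it was outside every region at 5 genes, the exception being SMC3, and in the knockout list at 4 genes, the exceptions being SMC3 and NIPBL. The map of the regions shows the start in a gap between 2 regions at CTCF, SMC1A and YY1 in both lists and at NIPBL in wild type, while RAD21 had a single region, downstream of its start. Of the 10 member regions, 8 in each list had another region of the same list within 1 kb, compared with 32.7% of all wild-type and 27.0% of all knockout regions. By gene, 4 of the 6 had 2 regions in each list, and each such gene added both to the count. The shares of the lists are over all regions, not only those beside start sites, so the comparison is not of like with like.

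**Figure D1:**
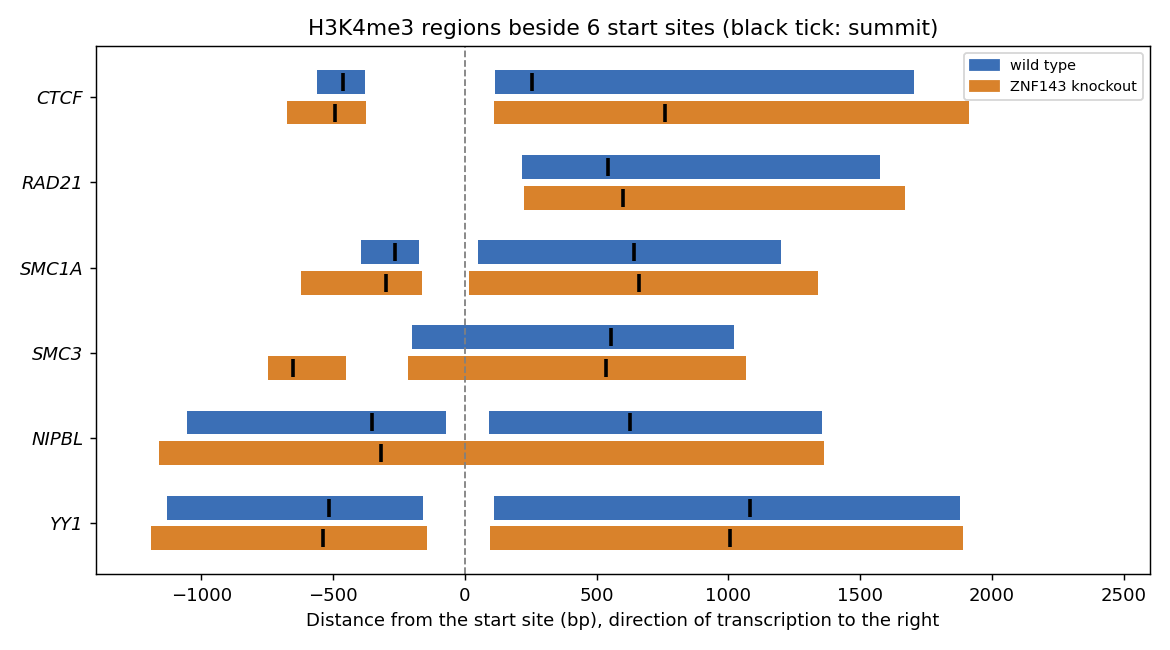
H3K4me3 regions of the wild-type and the ZNF143 knockout list beside the start sites of 6 genes, as distance from the start in bp along the direction of transcription, with each bar a region as deposited and each black tick its summit. The start lies in a gap at CTCF, SMC1A and YY1 in both lists. At NIPBL, 2 wild-type regions correspond to 1 knockout region, and at SMC3 the knockout list has a further upstream region.

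CTCF (start at chromosome 16, 67596310, + strand) had a small upstream and a large downstream region in both lists. The wild-type upstream region ran from 67595751 to 67595932, a width of 182 bp, and the downstream region from 67596424 to 67598013, a width of 1590 bp. In the knockout list they ran from 67595636 to 67595935 (300 bp) and from 67596421 to 67598223 (1803 bp). The gap between them was 491 bp in wild type and 485 bp in the knockout, the longest gap among the genes with paired regions in both lists. The summit of the downstream region lay 254 bp after the start in the wild-type library and 759 bp after it in the knockout library. A summit displacement of this size, 505 bp, or more was found in 1.15% of the 16501 one-to-one pairs of regions (regions with exactly 1 partner in each direction), whose median displacement was 18 bp.

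The fold column of the deposited lists gives the summit pileup over a local background rate, and was 11.6 in wild type and 9.53 in the knockout at the downstream CTCF region. Folds of the 2 libraries have no common scale, so each was turned into a percentile. This is the rank of the region from the lowest value, as a percentage of the regions in its own list, with ties given their mean rank. By fold, this region stood at percentile 50.7 in wild type and 38.9 in the knockout, a difference of −11.8 points. By −log10 q, which was 387 and 579, it stood at 92.4 and 85.0. The summit pileup, the whole number of fragments solved from the fold and p columns, was 576 and 977, at percentiles 97.2 and 94.5. The downstream CTCF region was thus among the tallest of each list, but of middle rank by fold, and it was lower in the knockout list by all 3 measures.

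The upstream CTCF region differed from it in direction. Its fold was 2.57 in wild type and 2.98 in the knockout, at percentiles 1.04 and 3.52, and its pileup was 127 and 305 fragments, at percentiles 40.2 and 46.6. By −log10 q it moved from percentile 19.4 to 28.5, the largest upward difference among the 10 overlapping couples of member regions. Both regions of CTCF shared a background rate of 48.8 or 48.9 fragments in wild type and 102 in the knockout, so their folds differ through the pileup alone.

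Among the cohesin subunits, RAD21 (start at chromosome 8, 117887105, − strand) had 1 region in each list, wholly downstream of the start. It ran from 117885531 to 117886888 in wild type (1358 bp) and from 117885436 to 117886879 in the knockout (1444 bp). Neither list had a region upstream of this start within 3 kb, in contrast to CTCF, SMC1A, NIPBL and YY1. The fold was 10.9 and 9.73, at percentiles 46.5 and 40.1. The −log10 q was 206 and 257, at percentiles 63.7 and 52.6, and the pileup 315 and 425, at percentiles 67.1 and 55.0. RAD21 thus stood lower in the knockout list by each measure, with the largest downward difference of the 6 genes by −log10 q (−11.1 points) and by pileup (−12.2 points).

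SMC1A (start at chromosome X, 53449677, − strand) had a large region downstream and a small one upstream of its start. The downstream region ran from 53448476 to 53449628 in wild type and from 53448336 to 53449660 in the knockout, with widths of 1153 and 1325 bp. The upstream region, from 53449851 to 53450072 and from 53449841 to 53450299, had widths of 222 and 459 bp. The gap between them was 222 bp in wild type and 180 bp in the knockout. In the GRCh38.p14 gene table the next gene upstream of SMC1A is RIBC1. Those upstream of CTCF, NIPBL and YY1 are the long noncoding RNA genes CTCF-DT, NIPBL-DT and YY1-DT. Whether the upstream regions belong to these neighbours was not tested.

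At the downstream SMC1A region the fold was 12.8 in wild type and 11.5 in the knockout, at percentiles 58.6 and 51.5. By −log10 q (161 and 253) the percentiles were 55.4 and 52.1, and by pileup (222 and 376) they were 53.5 and 51.5. By all 3 measures it stood just above the middle of both lists. The upstream region was weak in both: its fold was 4.23 and 4.16, at percentiles 8.58 and 11.0, and its pileup 73 and 136, at percentiles 29.6 and 31.4.

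SMC3 (start at chromosome 10, 112327449, + strand) was the only gene whose start was covered in both lists. The region ran from 112327249 to 112328471 in wild type (1223 bp) and from 112327232 to 112328516 in the knockout (1285 bp), beginning at −200 and −217 bp from the start. Its fold was 12.0 and 12.3, at percentiles 53.9 and 57.1. The −log10 q was 266 and 512, at percentiles 75.3 and 79.2, and the pileup 385 and 737, at percentiles 78.3 and 81.6. SMC3 was the gene of the 6 whose main region stood furthest up in the knockout list relative to wild type by each of the 3 measures.

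The knockout list also held a second SMC3 region, from 112326703 to 112326997, with no wild-type partner. It was 295 bp wide, 234 bp away from the main region, and had a fold of 2.11, at percentile 0.702. Its −log10 q was 11.6 and its pileup 126 fragments, at percentiles 12.0 and 30.1. By fold it therefore lay among the weakest 1% of the list. The knockout library had the higher genome background rate, taken as the lowest rate recovered, at 3.25 fragments per base against 1.40 in wild type. The depth in reads is unknown, and the part of depth in this added region was not tested.

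NIPBL (start at chromosome 5, 36876861, + strand) differed between the lists in the number of regions. In the wild-type list a region from 36875807 to 36876788 (982 bp) and one from 36876953 to 36878218 (1266 bp) flanked the start, with a gap of 164 bp between them. In the knockout list a single region from 36875702 to 36878222 (2521 bp) spanned both and the start. Among the 10 knockout member regions this was the only one to span more than 1 wild-type region, while 5.27% of the whole knockout list did so. None of the 10 wild-type member regions spanned more than 1 knockout region, as 0.551% of the wild-type list did. The gap at NIPBL was the shortest of the 4 in the wild-type list.

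Across the whole lists, 3365 neighbouring couples of wild-type regions lay within 1 kb of each other, and 31.2% of them corresponded to a single knockout region. The joining at NIPBL was 1 of the 4 such couples at the genes described here. At NIPBL the outer edges extended by 105 bp on the upstream and 4 bp on the downstream side, and the covered length within 3 kb was 2248 bp in wild type and 2521 bp in the knockout. The knockout width stood at percentile 99.6 of its list. The wild-type widths stood at percentiles 57.4 and 75.7, so the rank by width depended on whether the gap was bridged.

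The heights at NIPBL differed little between the lists. In wild type the fold was 6.98 upstream and 6.77 downstream, at percentiles 24.5 and 23.8, and in the knockout it was 6.90, at percentile 26.0. The pileup was 422 and 410 in wild type, at percentiles 83.9 and 82.0, and 779 in the knockout, at percentile 84.6. By −log10 q, which was 201 and 190 in wild type and 366 in the knockout, the percentiles were 62.7, 60.9 and 63.5. The knockout summit lay at −319 bp from the start and the nearer wild-type summit at −351 bp.

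YY1 (start at chromosome 14, 100705102, + strand) had 2 regions of nearly equal height in both lists. In wild type they ran from 100703971 to 100704945 (975 bp) and from 100705212 to 100706981 (1770 bp), and in the knockout from 100703913 to 100704958 (1046 bp) and from 100705198 to 100706993 (1796 bp). The gap was 266 bp in wild type and 239 bp in the knockout. The fold was 5.82 upstream and 5.86 downstream in wild type, and 5.59 and 5.52 in the knockout. The pileup was 371 and 374 in wild type, and 675 and 667 in the knockout. The higher of the 2 was thus the downstream region in wild type and the upstream region in the knockout, by 3 fragments and by 8 fragments.

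By rank, the YY1 regions stood at almost the same place in both lists. The downstream region stood at percentiles 19.0 and 19.3 by fold, 54.0 and 52.7 by −log10 q, and 76.5 and 75.6 by pileup. The upstream region stood at 17.7 and 19.6 by fold, 53.6 and 53.3 by −log10 q, and 76.1 and 76.4 by pileup. No measure differed between the lists by more than 1.84 points at either region.

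**Figure D2:**
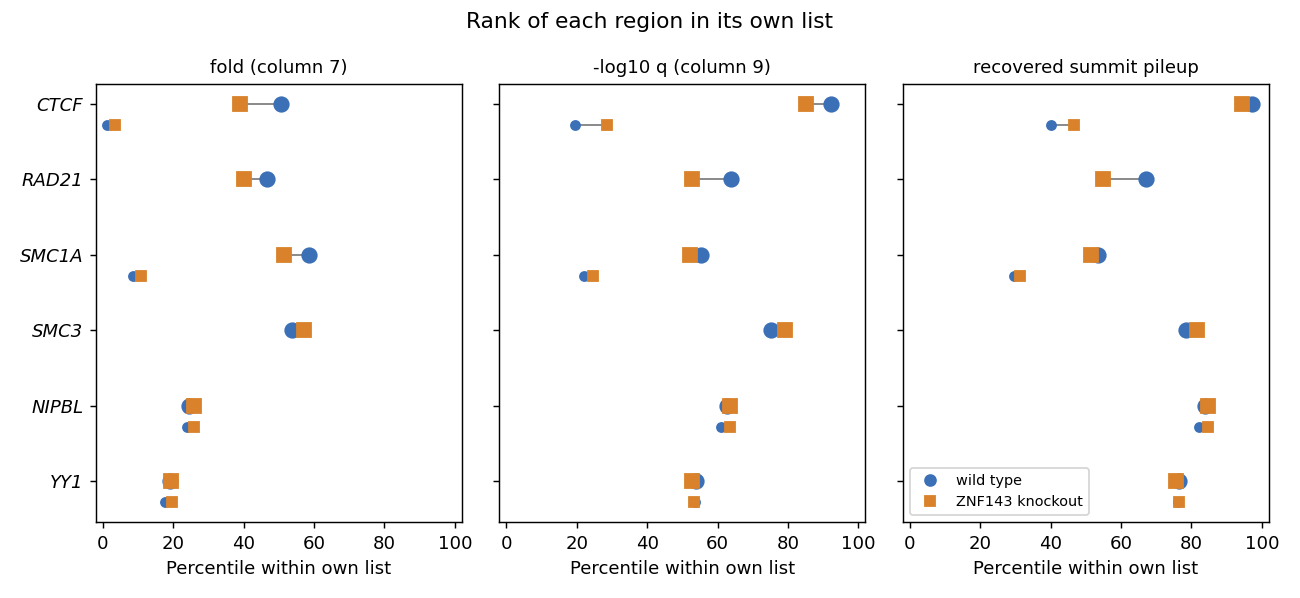
Percentile of each member region within its own list by fold, −log10 q and recovered summit pileup, with circles for wild type, squares for the ZNF143 knockout, and a line joining overlapping regions. Large symbols are the region nearest the start and small symbols the other overlapping couple of the gene. The NIPBL knockout region appears on both of its lines, and the SMC3 region without a partner is not drawn. By the region nearest the start, CTCF, RAD21 and SMC1A lie lower in the knockout list, while the upstream regions of CTCF and SMC1A lie higher, and NIPBL and YY1 have a low fold percentile beside a high pileup percentile.

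The 3 measures ranked these genes differently. In both lists YY1 and NIPBL had a pileup percentile above 70 and a fold percentile under 30, a combination found in 5.56% of wild-type and 6.02% of knockout regions with a pileup percentile above 70. Their local background rates were between 59.6 and 63.0 fragments in wild type and between 112 and 120 in the knockout, against medians of 31.3 and 59.7 over the regions with a pileup percentile above 70, and of 16.6 and 31.3 over the whole lists. SMC1A, by contrast, had a wild-type rate of 16.5, and wild-type percentiles of 58.6 by fold and 53.5 by pileup. Whether a control library set these rates is not given in the sources used here, and what raised them was not tested. By pileup the order of the regions nearest the start, from high to low, was CTCF, NIPBL, SMC3, YY1, RAD21, SMC1A in wild type and the same in the knockout. By fold it was SMC1A, SMC3, CTCF, RAD21, NIPBL, YY1 in wild type and SMC3, SMC1A, RAD21, CTCF, NIPBL, YY1 in the knockout. With 1 library, whether neighbours in these orders differ beyond the spread between cultures was not tested.

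Taking 1 region per gene, the one nearest the start, the fold percentile was lower in the knockout at 3 genes (CTCF, RAD21 and SMC1A) and higher at 3 (SMC3, NIPBL and YY1), with a median difference of −3.04 points. Without NIPBL, whose 2 wild-type regions face 1 knockout region, the median was −6.42 points. Over all one-to-one pairs, 50.1% were lower in the knockout list and the median difference was −0.007 points. By −log10 q, 2 of the 6 genes (SMC3 and NIPBL) were higher in the knockout, with a median of −2.24 points, while 55.6% of all pairs were higher, with a median of 0.74. By pileup the same 2 genes were higher, with a median of −1.51 points, while 58.3% of all pairs were higher, with a median of 1.07. The fold difference was at most 10 points at 5 of the 6 genes, CTCF being the exception, against 81.7% of all pairs. By fold, the members were therefore spread on both sides of the median for all pairs. By −log10 q, only SMC3 and NIPBL (0.75 points) lay above that median. By pileup, only SMC3 (3.29 points) did, and the other genes lay below it. The median absolute difference by fold over all pairs was 3.89 points, a size exceeded at CTCF, RAD21 and SMC1A.

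Widths were compared next. In the 8 one-to-one couples of member regions, the knockout region was the wider in bp in all 8, against 82.2% of all pairs. By rank within each list the direction was mixed. The width percentile, knockout minus wild type, differed by −3.18 points at RAD21, −4.90 at SMC3, and −4.00 and −2.97 at the upstream and downstream YY1 regions. It differed by 7.95 and 1.72 points at the upstream and downstream CTCF regions, and by 12.3 and 2.03 at those of SMC1A. Over all pairs the median was −2.44 points. The ratio of knockout to wild-type width ran from 1.01 at the downstream YY1 region to 2.07 at the upstream SMC1A region, and the median over all pairs was 1.06. Small flanking regions had the largest ratios: the upstream SMC1A region had 2.07 and the upstream CTCF region 1.65. The main regions of CTCF, SMC1A, RAD21 and SMC3 had ratios of 1.13, 1.15, 1.06 and 1.05.

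The added width lay mostly away from the start. In the 7 one-to-one couples that flanked a start without covering it, the edge facing the start moved by between −9 and 32 bp in the knockout list, with a median of 10 bp, where a positive value means an extension of the region. The outer edge moved outwards by 12 to 227 bp, with a median of 115 bp. At CTCF the downstream region extended by 3 bp towards the start and by 210 bp away from it. At RAD21 the edge facing the start drew back by 9 bp and the outer edge extended by 95 bp. The downstream YY1 region was the exception, with 14 bp towards the start and 12 bp away from it.

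The same asymmetry was present in the lists as a whole. Among 2012 couples of regions that flanked a gap of at most 1 kb in wild type and stayed apart in the knockout list, the edge facing the gap extended by a median of 11 bp (quartiles 0 and 23 bp), and the outer edge by a median of 30 bp (quartiles 4 and 70 bp). Of those gaps, 79.2% were narrower in the knockout list, with medians of 279.5 bp in wild type and 253 bp in the knockout. Gaps were also narrower at CTCF, SMC1A and YY1, by 6, 42 and 27 bp. Outer edges at 5 of the 7 member couples thus extended beyond the upper quartile of all couples that flank a gap. The edges facing the start lay within those quartiles except at RAD21 and at the downstream SMC1A region. RAD21, counted among the 5, had 1 region in each list and none across its start, so it is not of the kind these quartiles describe.

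**Figure D3:**
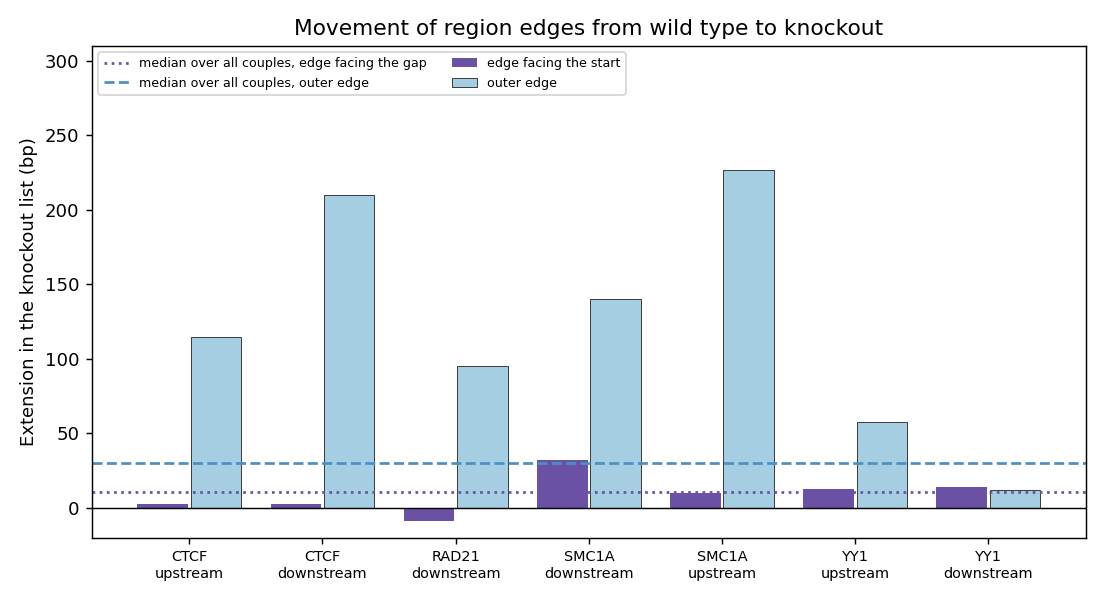
Movement of region edges from the wild-type to the knockout list, in bp, for the 7 one-to-one couples that flank a start site, with positive values for an extension in the knockout. Dark bars are edges facing the start, light bars are outer edges, and the lines are the medians over 2012 couples of the whole lists, 11 and 30 bp. Outer edges extended by up to 227 bp, and edges facing the start by at most 32 bp.

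Pileup ratios were then set beside those of the surrounding regions, because whole chromosomes and segments differed between the 2 libraries. For each pair the log2 of knockout over wild-type pileup was taken relative to the median of all pairs, a raw ratio of 1.86, and the middle 50% of all pairs lay between −0.20 and 0.19. RAD21 had the lowest value, −0.46. The median over the 604 pairs of chromosome 8 was −0.35, and that of the 20 pairs nearest to RAD21, which covered 8.81 Mb, was −0.53. All 20 of these lay below 0 and 12 of them lay below RAD21 itself, so the lower pileup ratio at RAD21 was shared with its surroundings. By fold percentile the difference was −6.42 points at RAD21. The median difference was −0.26 over chromosome 8 and −2.92 over the 20 nearest pairs. The background rate at RAD21 was 28.0 fragments in wild type and 42.8 in the knockout, a ratio of 1.53, the lowest rate ratio of the 6 genes.

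CTCF showed the opposite relation to its surroundings. Its downstream region had a value of −0.13, while the median was 0.17 over the 745 pairs of chromosome 16 and 0.30 over the 20 nearest pairs, of which 1 lay lower than the CTCF region. The upstream CTCF region had a value of 0.37, above both medians. The background rate at CTCF had a ratio of 2.08, the highest of the 6 genes. Among pairs in the highest 10% by wild-type pileup, to which the downstream CTCF region belongs, the median was −0.03 and the quartiles were −0.16 and 0.07.

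YY1 also lay below its surroundings. The value was −0.06 at its downstream and −0.03 at its upstream region, against a median of 0.02 over the 517 pairs of chromosome 14 and 0.27 over the 20 nearest pairs. None of those 20 lay lower than the downstream region. The 20 pairs covered 2.47 Mb at YY1 and 0.67 Mb at CTCF. These 2 genes were singled out after their values were seen.

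The remaining genes lay within their surroundings. SMC1A had a value of −0.13, with medians of 0.03 over chromosome X and 0.03 over the 20 nearest pairs, 6 of which were lower. SMC3 had a value of 0.04, with medians of −0.02 over chromosome 10 and −0.06 nearby, where 14 of 20 were lower. NIPBL, taken at its upstream wild-type region, had a value of −0.01, with medians of −0.03 over chromosome 5 and −0.04 nearby, where 12 of 20 were lower. The 20 nearest pairs covered 1.46 Mb at SMC1A, 3.15 Mb at SMC3 and 5.98 Mb at NIPBL.

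**Figure D4:**
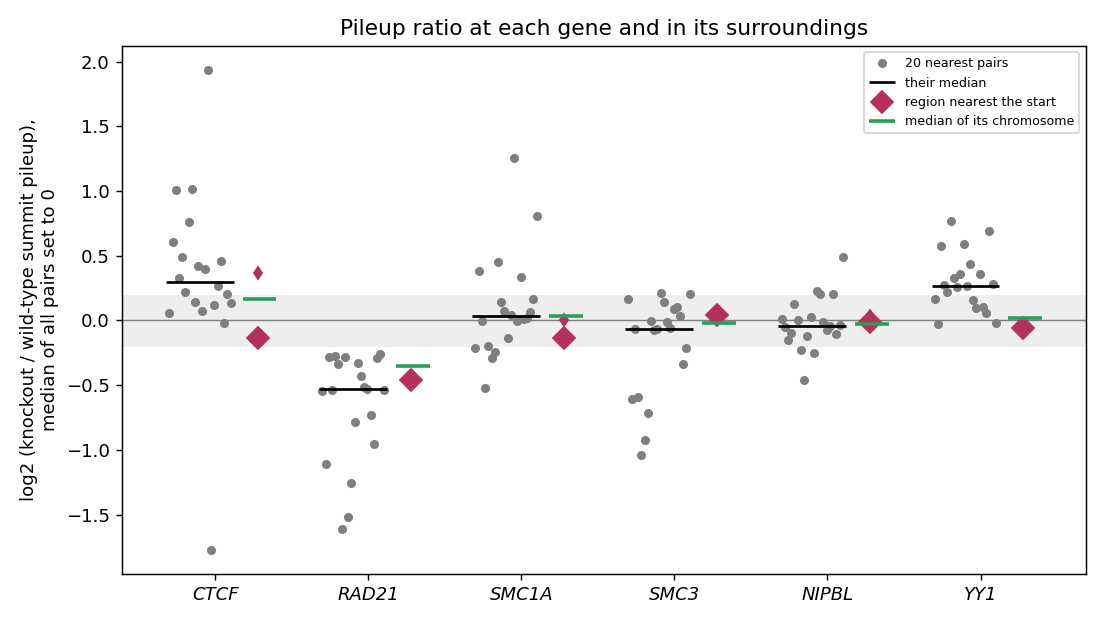
Summit pileup in the knockout over that in wild type, as log2, with the median of all pairs set to 0, for the 6 genes. Large diamonds are the region nearest the start, small diamonds the other couple, grey circles the 20 nearest pairs in order along the chromosome with their median as a black line, green lines the chromosome medians, and the grey band the middle 50% of all pairs. RAD21 lies within its low surroundings, while the main CTCF region and both YY1 regions lie at the lower end of theirs.

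The genes also differed in how isolated their promoters were. Within 100 kb of the start, RAD21 and NIPBL had no region other than those described, in either list. The nearest regions outside 3 kb lay 107 kb downstream and 645 kb upstream of RAD21, and 131 kb upstream and 372 kb downstream of NIPBL, in both lists. SMC3 had 2 further wild-type regions and 1 further knockout region within 100 kb, SMC1A had 3 in each list, YY1 had 4 and 5, and CTCF had 8 and 7. The region nearest to CTCF on its upstream side lay 31.8 kb away in wild type and 31.9 kb away in the knockout, with pileups of 310 and 759 fragments, at percentiles 66.3 and 83.2. That neighbour ranked higher in the knockout list, where the main CTCF region ranked lower. On its downstream side a narrow wild-type region of 13 fragments lay 38.8 kb away, and the first knockout region 74.8 kb away.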

How the data were processed

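H3K4me3 ChIP-seq peak lists of 2 HEC-1-B libraries, 1 wild-type and 1 with ZNF143 knocked out, were used, grouped by the genotype in the labels. Per the submitters' processing notes, Bowtie2, MACS2, SAMtools 1.12 and deepTools were used and the builds were GRCh37 and hg19; their settings, and any control library, are not given in the sources used here. The deposited narrowPeak files gave the authors' fold, a ratio of summit pileup over local background (column 7), and the −log10 p-value and −log10 q-value (columns 8 and 9). The deposited score column was not used. Peak names carried 1 prefix per list, so each list appears to come from 1 library. No scaling between lists is stated, so levels were compared as percentiles within a list.

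Start sites were those of the rule for the 6 genes, in hg19; strands came from the RefSeq promoter table, except that of RAD21, which is textbook knowledge. The members, lists and comparisons were chosen with earlier results of these data known. Named were the 6 genes, whatever their values. Whole-number pileups were solved as the value k for which (k + 1) over (rate + 1) equals the fold and the Poisson probability of more than k fragments equals the p-value. The largest relative error of the p column was 1.76e-05 in wild type and 2.67e-05 in the knockout; the solver was tested on simulated data. Regions on other sequences, 785 in wild type and 862 in the knockout, were left out. The depth in reads is unknown; the pileup ranged from 7 to 6209 fragments in wild type and from 11 to 14245 in the knockout. Regions of the 2 lists that shared at least 1 bp were called overlapping. Distances of 1 and 10 kb, a −log10 q of at least 5, the region of highest fold, percentiles over every sequence and merging within 1 kb were the alternatives. The 16 other cohesin and looping genes listed, among them STAG2 and WAPL, were not analysed here, because the gene table is of GRCh38.p14 and the regions of hg19. The edited gene itself was not checked, since a promoter mark does not show a deletion. Computations ran in Python 3.11.15 with scipy 1.17.1, pandas 2.3.3 and numpy 2.4.6, and figures were drawn with matplotlib 3.10.9.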

Additional observations from a re-analysis of the deposited data

How the results depend on the processing

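No paired analysis was possible because there was 1 library of each kind, nor could a library be left out. All 6 genes had a region in both lists at 1, 3 and 10 kb and at a −log10 q of at least 5. The count of genes with a wider knockout region, 6, became 5 with the region of highest fold and was 5 of 5 without NIPBL. The gene lost with the region of highest fold was YY1, where that choice compared different regions. It took the downstream region in wild type (1770 bp) and the upstream region in the knockout (1046 bp). Each YY1 region was wider in the knockout than its own wild-type partner. Genes with more than 1 region, 4 in each list, became 0 in wild type and 0 in the knockout when regions within 1 kb were merged, which follows from how merging works. The median difference in fold percentile, −3.04, was −6.42 without NIPBL, an alternative added after the data were seen, because the median then falls on RAD21 alone. The median differences by −log10 q and by pileup stayed negative and within 1 percentile point of their values under every alternative run. The background rate differed between the libraries by a ratio of 2.31, and the part of depth in the weak flanking regions was not tested.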
